A study of Mus musculus with 2 samples.

Results

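The 8 cytokine genes described here belong to the interleukin 1, interleukin 6, interleukin 10 and TNF families: Il1a, Il1b, Il1rn, Il6, Il10, Il18, Tnf and Osm. They were found by symbol, and all 8 were among the 32285 genes of the count matrices. The cells were liver nonparenchymal cells, that is liver cells other than hepatocytes, isolated fresh from mice given carbon tetrachloride (CCl4) into the peritoneum for 8 weeks. CCl4 is a liver toxin that, given repeatedly, injures hepatocytes and leaves scar tissue. The wild-type group was Mfap2+/+ and the knockout group Mfap2-/-, which lacks microfibril-associated glycoprotein 1. Both groups received CCl4, and no group without CCl4 was analysed here. Each genotype had 1 droplet library of 3' tags, and the labels used here give no age, sex, strain or number of animals. Every difference between genotypes is therefore a difference between 2 libraries, with no replicate check and no test.

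Interleukin 1 alpha and interleukin 1 beta bind the same receptor, which signals through Myd88 and IRAK kinases to NF-kappaB, and the receptor antagonist encoded by Il1rn competes with them for it. Interleukin 1 beta and interleukin 18 are made as precursors that caspase-1 cuts in inflammasomes, so their mRNA level is not the level of active cytokine. TNF acts through its own receptors on NF-kappaB and cell death, interleukin 6 and oncostatin M (Osm) signal through receptors that share the gp130 subunit (Il6st), and interleukin 10 restrains macrophage activation through STAT3. In the liver, resident macrophages called Kupffer cells, monocytes that enter after injury, and neutrophils are known sources of several of these cytokines.

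On the mouse assembly GRCm38 with the GENCODE M21 annotation, Il1a spans chr2:129299610-129309972 and Il1b chr2:129364570-129371139, both on the minus strand with 54597 bases between them. Il1rn lies farther off on the same chromosome at chr2:24336853-24351494, on the plus strand. Il6 lies at chr5:30013114-30019981, Il10 at chr1:131019845-131024974, Il18 at chr9:50554827-50581840 and Osm at chr11:4236420-4241026, all on the plus strand, and Tnf at chr17:35199381-35202007 on the minus strand. All are protein-coding. Of the 8, 3 overlap genes on the opposite strand in this annotation: Il1a overlaps Gm14023, Il1b overlaps Il1bos, and Il18 overlaps Bco2 and Tex12. The strand rule of the counting was not given in the sources used here. Whether reads of these partners were counted with the member is therefore not known here.

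The 150 bases before the RefSeq start site are shown for 5 genes, because neighbouring Il1a and Il1b led in different cell classes and Il6, Il18 and Tnf differed most between the libraries when UMIs were summed over all cells (log2 knockout over wild type -0.74, -0.77 and -0.52). The sequences are from RefSeq on GRCm38.p6, written 5′ to 3′ on the strand of the gene, and capitals mark a match to a searched motif. The windows are chr2:129309973-129310122 (minus strand), chr2:129371140-129371289 (minus), chr17:35202008-35202157 (minus), chr5:30012964-30013113 (plus) and chr9:50554550-50554699 (plus).
Il1a: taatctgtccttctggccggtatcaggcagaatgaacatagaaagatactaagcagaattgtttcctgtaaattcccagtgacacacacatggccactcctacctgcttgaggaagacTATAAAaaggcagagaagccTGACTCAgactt
Il1b: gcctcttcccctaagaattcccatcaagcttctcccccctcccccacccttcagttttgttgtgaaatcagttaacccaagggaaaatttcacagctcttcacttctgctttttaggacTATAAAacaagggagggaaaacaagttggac
Tnf: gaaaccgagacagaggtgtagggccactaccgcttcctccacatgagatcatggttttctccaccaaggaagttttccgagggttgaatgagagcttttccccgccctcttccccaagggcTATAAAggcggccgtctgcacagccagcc
Il6: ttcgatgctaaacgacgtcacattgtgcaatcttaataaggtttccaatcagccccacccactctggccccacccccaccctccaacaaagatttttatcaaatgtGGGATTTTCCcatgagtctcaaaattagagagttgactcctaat
Il18: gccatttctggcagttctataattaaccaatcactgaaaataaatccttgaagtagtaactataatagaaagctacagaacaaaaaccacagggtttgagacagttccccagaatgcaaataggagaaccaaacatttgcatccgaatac

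The letters TATAAA, searched on the gene's strand only, stand 32 to 27 bases before the start of Il1a, 31 to 26 before that of Il1b and 29 to 24 before that of Tnf. They occur in 4.85% of 32817 promoters of the same length. Il1a also holds the AP-1 letters TGANTCA 12 to 6 bases before the start, a motif of 4.24% of promoters on either strand. Il6 holds the NF-kappaB motif (GGG, 3 bases of any kind, TTCC), with the letters GGGATTTTCC, 44 to 35 bases before the start, a motif of 3.05% of promoters. The Il18 window matched none of the 6 motifs searched, which also included TGACGTCA (1.36% of promoters), TTGCGCAA (0.113%) and the heat shock element (0.268%), each on both strands. Matches did not overlap one another. Promoter sequences were found for 6 of the 8 genes, all but Il10 and Osm. The window before one of the 3 starts of Il1rn held the AP-1 motif and that before another the NF-kappaB motif.

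The wild-type matrix held 11783 cell barcodes and 82499307 UMIs (unique molecular identifiers, each counting 1 captured mRNA), and the knockout matrix held 12872 barcodes and 118226367 UMIs. After filtering and removal of likely doublets, 10336 wild-type and 11428 knockout cells remained, with the median knockout barcode 1.39 times as deep as the wild-type one. The libraries shared 40 barcodes. Mfap2 itself had 167 UMIs in wild-type mesenchymal-like cells and 1 in knockout ones, as its label would have it. Cells were clustered from both libraries together, and clusters were named from fixed marker genes. Levels are CPM, the UMIs of a gene per 1000000 UMIs of its class, and intervals are 95% and cover counting error only. Median depth in wild type and knockout was 3377.5 and 4764 UMIs in B-like, 5104 and 6262 in T-like and 4302.5 and 6195 in endothelial-like cells, the classes used as background for shares. It was 2294 and 2765 in neutrophil-like, 4314.5 and 5598 in patrolling monocyte-like, 8169 and 12106 in cDC2-like and 13026 and 14660 in mesenchymal-like cells. In every one of 7 myeloid, endothelial and mesenchymal classes the erythroid marker list was lower in the knockout (summed 485 to 1120 CPM in wild type, 133 to 629 in knockout) and the hepatocyte list was higher (62.9 to 116 CPM against 169 to 258 CPM). At most 2 of 6 erythroid and 1 of 7 hepatocyte markers were at 0 in a class. Their part in the results below was not tested.

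Each gene had its own leading class, that is the named class with the highest level over both libraries. Neutrophil-like cells led for Il1b, Il1rn and Osm, endothelial-like cells for Il1a, mesenchymal-like cells for Il6, patrolling monocyte-like cells for Il10, macrophage-like cells for Il18 and cDC2-like cells (type 2 conventional dendritic cells) for Tnf. Macrophage-like cells were numerous, and they held the largest share of the UMIs of 7 genes in both libraries, all but Osm. For Il1rn they held 37.4% of wild-type and 33.3% of knockout UMIs, close to the 31.5% and 29.4% of neutrophil-like cells. For Osm, neutrophil-like cells held the largest share, with 40.6% of wild-type and 29.7% of knockout UMIs. Myeloid classes together held 89.3% and 88.0% of Il1b, and 86.2% and 85.3% of Il10, in wild type and knockout.

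**Figure D1:**
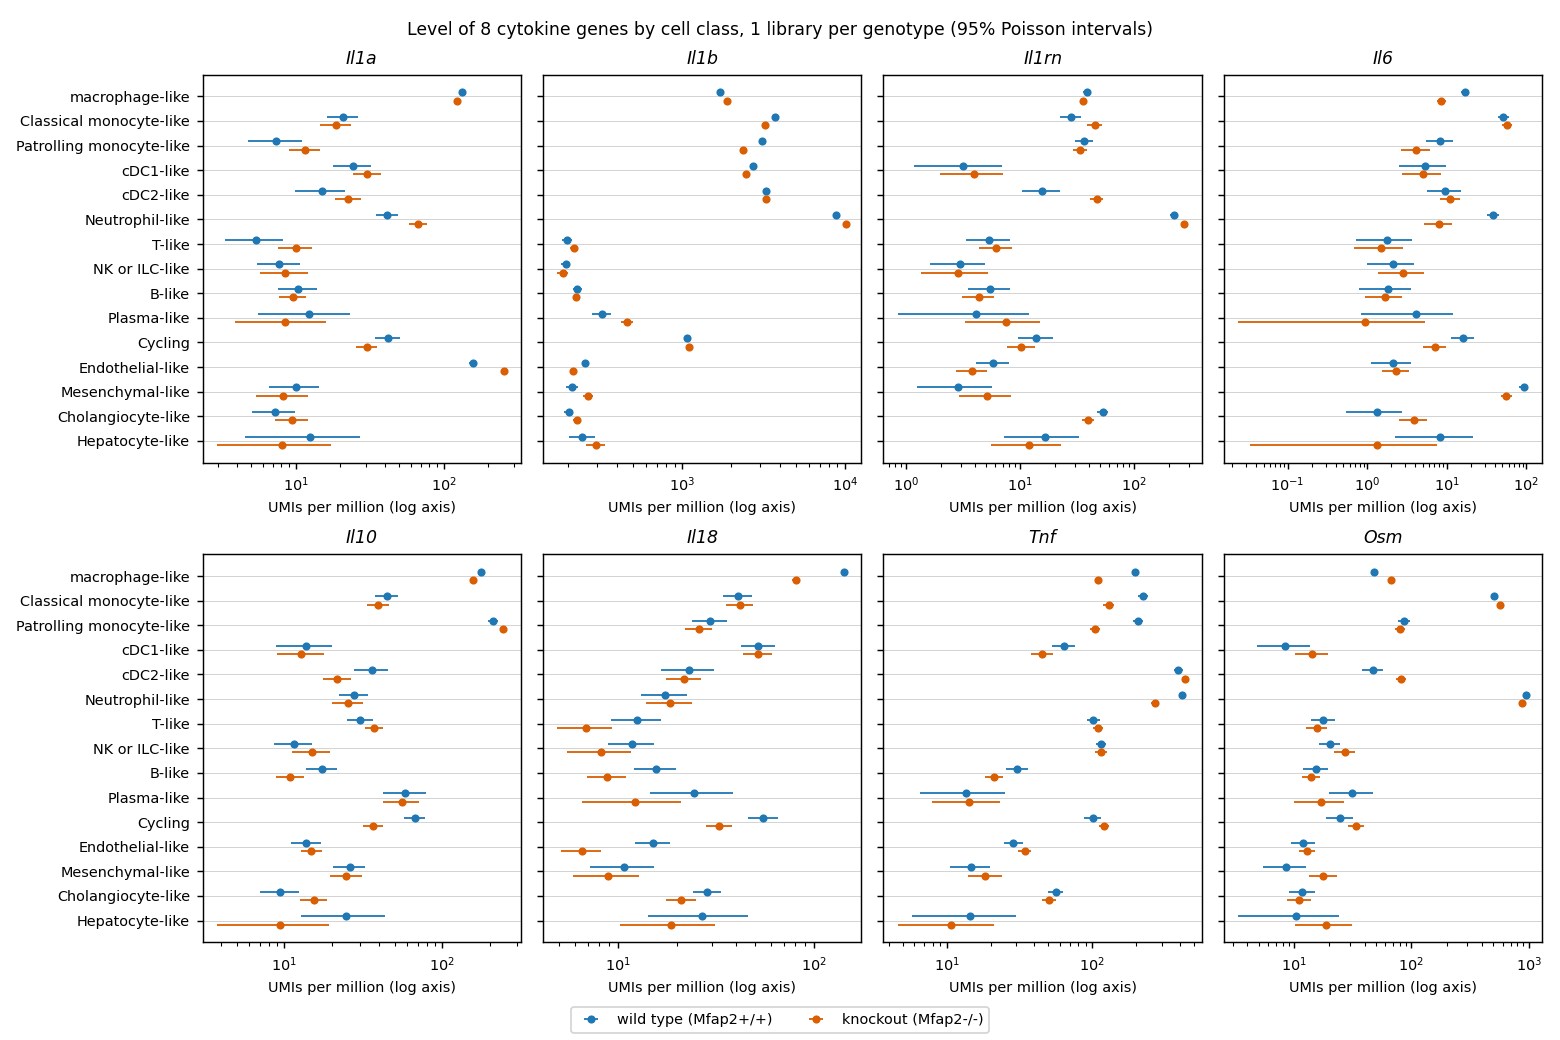
Level of each gene (CPM, log axis) in 15 cell classes, with wild type in blue and knockout in orange, 1 library each, and 95% Poisson intervals. Il1b stood far above its level in lymphocytes in every myeloid class, whereas Il1a was high in endothelial-like and macrophage-like cells, and Il6 in mesenchymal-like and classical monocyte-like cells.

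**Figure D2:**
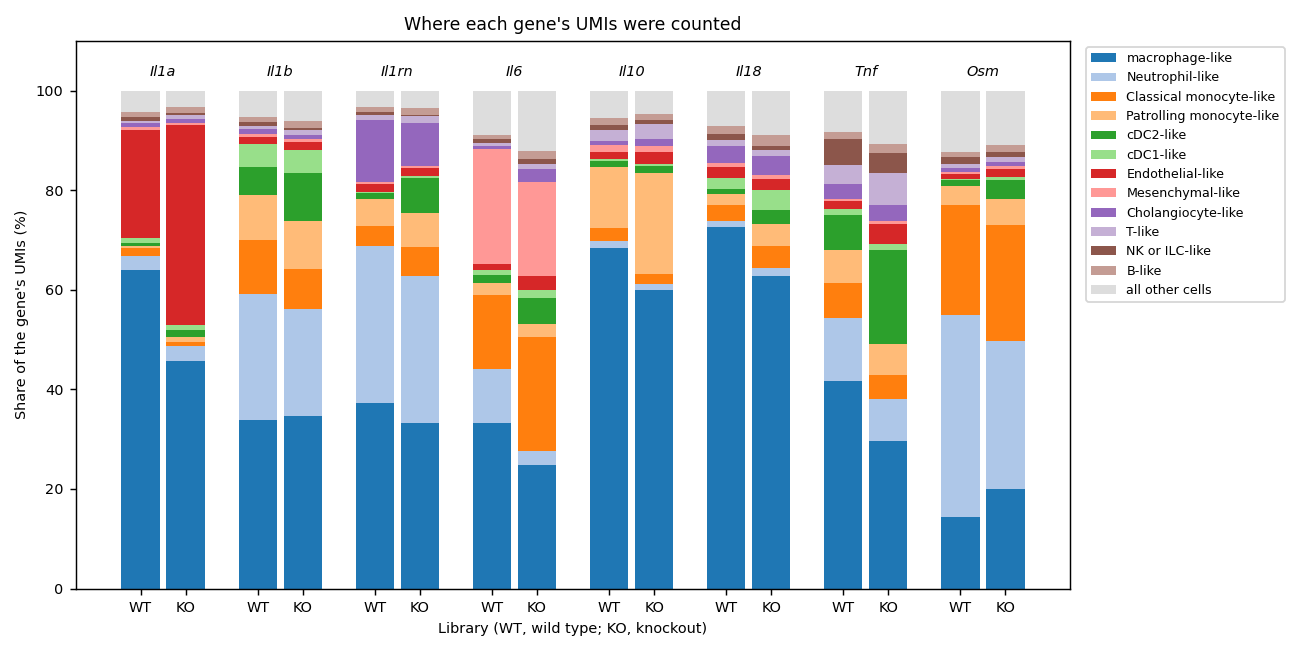
Share of each gene's UMIs (percent) counted in each class, 1 bar per library. Endothelial-like cells held 21.6% of wild-type and 40.1% of knockout Il1a, and cDC2-like cells held 7.05% of wild-type and 19.0% of knockout Tnf.

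Il1a, the membrane-associated and alarmin form of interleukin 1, was highest in endothelial-like cells. Its level there was 158 CPM in wild type (interval 149 to 169, 1220 cells) and 257 CPM in knockout (248 to 266, 1627 cells). The knockout level was 1.62 times the wild-type one, a log2 ratio of 0.70 (0.59 to 0.80), and the intervals did not overlap. At least 1 Il1a UMI was present in 38.7% of cells of the class in wild type and 54.8% in knockout, and in 14.5% and 20.03% once every cell was thinned to 1000 UMIs. B-like cells, taken as background, had it in 3.73% and 4.50% of cells, or 1.08% in both libraries after thinning. More than 5 Il1a UMIs were counted in 27 wild-type and 152 knockout endothelial-like cells.

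Within the endothelial-like class, Il1a was highest in the cluster led by Stab2, Clec4g and Lyve1, genes of liver sinusoidal endothelium. That cluster had 210 CPM in wild type and 309 in knockout, a log2 ratio of 0.55 (0.44 to 0.67). The cluster led by Selp, Rspo3 and Vwf had 54.5 and 72.2 CPM, a log2 ratio of 0.40 (0.03 to 0.79). A shallow cluster led by Ushbp1 and Egfl7 had 167 and 214 CPM, a log2 ratio of 0.35 (-0.04 to 0.75), and the small cluster with Gja5 (34 and 45 cells) had 95.2 and 216 CPM. All 4 clusters were thus higher in the knockout library, although the interval of the shallow one included 0. For the small one, with under 50 cells in each library, no ratio or interval was computed. With knockout clusters weighted as in wild type, the class ratio was 0.56. The macrophage marker list summed to 1257 CPM in wild-type and 1280 in knockout endothelial-like cells, and the Kupffer list to 485 and 243, with no marker of either at 0. The scar-associated macrophage list summed to 1846 and 784 CPM there, and the part of either difference was not tested.

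Macrophage-like cells had the second highest level of Il1a, with 133 CPM (128 to 138) in wild type and 124 (120 to 128) in knockout, a log2 ratio of -0.10 (-0.18 to -0.03). The class was made of 3 clusters in different proportions. Cluster 7, led by Marco, Clec4f, Cd5l and Vsig4 and high for all 8 Kupffer genes, held 803 wild-type and 311 knockout cells. Cluster 1, led by Ms4a7, C1qb and Ccl12 among others, held 993 and 1520, and cluster 12, led by Atp6v0d2, Mmp12 and Gpnmb with 6 of 7 scar-associated genes, held 281 and 282. Over the whole class the Kupffer list summed to 5363 CPM in wild type and 2434 in knockout. Il1a was higher in the knockout in cluster 1 (72.7 and 98.9 CPM, log2 0.44, 0.32 to 0.57) and cluster 12 (90.1 and 127 CPM, log2 0.50, 0.28 to 0.72). In cluster 7 the levels were 202 and 218 CPM, with a log2 interval of -0.001 to 0.22 that included 0. The class ratio thus had the opposite sign to those of its clusters, and with knockout clusters in the wild-type mix it was 0.21.

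Neutrophil-like cells had less Il1a, at 41.5 CPM (34.7 to 49.3) in wild type and 67.2 (58.4 to 76.8) in knockout, a log2 ratio of 0.69 (0.37 to 1.02). The gene was seen in 7.25% and 12.1% of these cells. Of the 2 neutrophil-like clusters, cluster 3 had a log2 ratio of 0.71 (0.38 to 1.07). In cluster 13 it was 0.03, with an interval of -0.95 to 0.99 that included 0. In lymphocytes Il1a stayed between 5.35 and 10.4 CPM.

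Il1b, the secreted form that needs cleavage, was highest in neutrophil-like cells. Its level was 8807 CPM in wild type (8704 to 8910, 1173 cells) and 10197 in knockout (10086 to 10309, 961 cells), a log2 ratio of 0.21 (0.19 to 0.23). At least 1 UMI was counted in 96.1% and 98.8% of these cells, with a median of 22 and 32 Il1b UMIs per cell. After thinning the shares were 90.7% and 93.4%, against 19.4% and 19.0% in B-like cells. The 2 neutrophil-like clusters differed more from each other than the libraries did. Cluster 3 had 12529 and 13998 CPM, whereas cluster 13, led by the granule genes Ltf, Ngp and Mmp8 of less mature neutrophils, had 2585 and 2661 CPM.

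In monocyte-like cells the order of the libraries was the other way round. Il1b was at 3703 CPM in wild-type and 3228 in knockout classical monocyte-like cells, a log2 ratio of -0.20 (-0.23 to -0.16). Patrolling monocyte-like cells had 3111 and 2371 CPM, a log2 ratio of -0.39 (-0.43 to -0.35). In cDC2-like cells the levels were 3293 and 3266 CPM and the interval of the log2 ratio, -0.05 to 0.03, included 0. Macrophage-like cells had 1717 and 1892 CPM (log2 0.14, 0.12 to 0.16), made of 0.10 in cluster 1, 0.22 in cluster 12 and -0.35 in cluster 7. With the wild-type mix of clusters that ratio was -0.073. In T-, B-, NK or ILC-, endothelial-, mesenchymal-, cholangiocyte- and hepatocyte-like cells Il1b lay between 185 and 295 CPM in both libraries, which is read here as background.

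Il1rn, which encodes the interleukin 1 receptor antagonist, was also highest in neutrophil-like cells. The level was 223 CPM in wild type (207 to 240) and 274 in knockout (256 to 293), a log2 ratio of 0.29 (0.15 to 0.44). A UMI was seen in 37.7% and 46.5% of these cells (20.5% and 24.7% after thinning), against 1.95% and 2.16% of B-like cells (0.250% and 0.908%). Cholangiocyte-like cells, the lining of bile ducts, were the only non-myeloid class with a level above 20 CPM in both libraries, at 52.9 CPM in wild type and 39.3 in knockout (log2 -0.43, -0.68 to -0.18). That ratio was -1.37 with cells thinned to 1000 UMIs and -1.22 with the mean of per-cell CPM.

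The largest ratio of Il1rn was in cDC2-like cells, with 15.5 CPM in wild type (10.4 to 22.3, 29 UMIs in 238 cells) and 46.8 in knockout (40.7 to 53.6, 209 UMIs in 390 cells). The knockout level was 2.93 times the wild-type one, a log2 ratio of 1.55 (1.03 to 2.21). With cells gated one by one on marker UMIs that ratio was 0.70, under 2-fold. The class holds a minority of cells with at least 4 of 7 migratory dendritic cell markers, 10.5% in wild type and 10% in knockout, and that list summed to 1219 and 769 CPM. Among the other cells Il1rn was at 12.1 and 45.1 CPM. Among the minority it was at 33.3 and 61.1 CPM, from only 10 UMIs in 25 cells and 29 UMIs in 39 cells. Both values were higher in the knockout library, but no interval was computed for either subset. Over the whole class, cells with a UMI were 22 and 81, or 9.24% and 20.8% (0.885% and 3.40% after thinning). In the knockout the 5 richest cells held 36.4% of the UMIs and 1 cell held 32, while the wild-type level rested on 29 UMIs in 22 cells. The macrophage list summed to 1255 CPM in wild-type and 1713 in knockout cDC2-like cells, none of its 10 markers being at 0, and its part was not tested. Classical monocyte-like cells had 27.9 and 44.9 CPM of Il1rn, a log2 ratio of 0.68 (0.31 to 1.07).

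The antagonist per unit of cytokine mRNA differed between classes. For every 100 Il1b UMIs, neutrophil-like cells had 2.54 Il1rn UMIs in wild type (2.35 to 2.73) and 2.69 in knockout (2.51 to 2.88). Macrophage-like cells had 2.23 and 1.88, classical monocyte-like cells 0.754 and 1.39, and cDC2-like cells 0.471 and 1.43. Of the 6 myeloid classes cDC1-like cells stood lowest, with 0.116 and 0.159. In B-like cells, where both genes were at background, the values were 2.38 and 1.95.

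**Figure D3:**
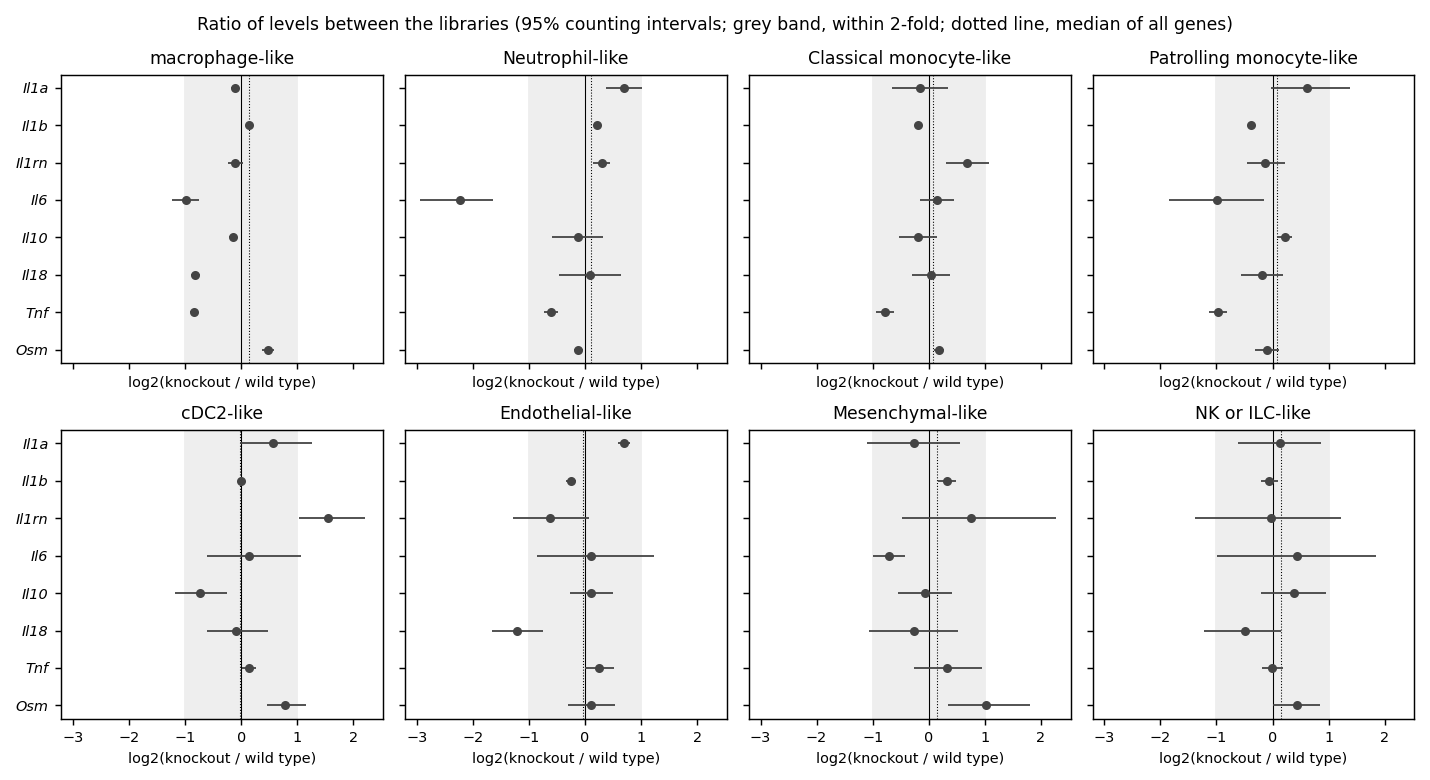
Log2 ratio of knockout over wild-type level for each gene in 8 classes, 1 library per genotype, with 95% counting intervals. The grey band marks ratios within 2-fold and the dotted line the median of all genes in that class. Tnf lay below 0 in macrophage-like, neutrophil-like and both monocyte-like classes, and near 0 in NK or ILC-like cells.

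Tnf was high in both neutrophil-like and cDC2-like cells. In wild type, neutrophil-like cells had 415 CPM (393 to 438) and cDC2-like cells 390 (362 to 419), and these intervals overlapped. In knockout, cDC2-like cells had 431 CPM (412 to 451) and neutrophil-like cells 271 (253 to 290), so that the order was clear in that library only. At least 1 UMI was counted in 61.8% and 64.4% of cDC2-like cells, and in 27.4% and 27.5% after thinning, against 10.3% and 16.9% of endothelial-like cells (2.72% and 2.56% thinned). The log2 ratio in cDC2-like cells was 0.14 (0.02 to 0.27), and it turned negative under 4 of 9 alternatives, down to -0.53 when cells were gated one by one on marker UMIs.

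Tnf was lower in the knockout library in the other 5 myeloid classes. Macrophage-like cells had 197 CPM in wild type (191 to 203) and 109 in knockout (105 to 113), a 1.80-fold difference with a log2 ratio of -0.85 (-0.92 to -0.78). Patrolling monocyte-like cells had 206 and 105 CPM (log2 -0.98, -1.14 to -0.82), and classical monocyte-like cells 223 and 130 CPM (log2 -0.78, -0.95 to -0.61). Neutrophil-like cells differed by a log2 ratio of -0.61 (-0.74 to -0.49). cDC1-like cells had 64.2 and 45.3 CPM (log2 -0.50, -0.87 to -0.13). The direction was the same under every alternative tried in the macrophage-like, neutrophil-like and both monocyte-like classes. NK or ILC-like cells had 115 CPM in both libraries (log2 interval -0.19 to 0.18) and T-like cells 102 and 110 CPM (interval -0.08 to 0.29), intervals that included 0. Within the T-like cells the clusters went opposite ways. The largest, led by Themis, Lef1 and Cd3g, had 91.4 CPM in wild type and 117 in knockout (log2 0.35, 0.15 to 0.56), whereas the small one led by Il17a, Il23r and Trdc, with 58 and 73 cells, had 304 and 126 CPM (log2 -1.26, -1.78 to -0.77).

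The lower Tnf level was present in each macrophage-like cluster. Cluster 1 had 228 CPM in wild type and 122 in knockout (log2 -0.91, -0.99 to -0.82), and cluster 7, the Kupffer gene cluster, had 196 and 93.5 CPM (log2 -1.07, -1.22 to -0.92). Cluster 12 had 89.7 and 72.7 CPM, a smaller log2 ratio of -0.31 (-0.55 to -0.06). With the wild-type mix of clusters the class ratio was -0.94.

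Genes of the dissociation stress list, immediate early and heat shock genes that rise while tissue is being digested, differed in the same cells. In macrophage-like cells 10 of 14 were above 0 with a median log2 ratio of 0.39, beside 0.14 for all genes. Past 2-fold higher were 3 of the 14, where 6.21% of genes were. Dnajb1, a heat shock co-chaperone, stood at 288 CPM in wild type and 817 in knockout, and Ier3, an immediate early gene, at 363 and 291. In neutrophil-like cells 10 of the 14 were above 0 (median 0.15, beside 0.10 for all genes), and Hspa1b, a heat shock chaperone, stood at 229 and 483 CPM. There 2 of the 14 were past 2-fold higher, where 4.85% of genes were. The list's median was 0.37 in classical monocyte-like, 0.21 in patrolling monocyte-like and 0.40 in cDC2-like cells, beside 0.08, 0.07 and -0.02 for all genes. In these classes 4, 1 and 1 of the 14 were past 2-fold higher, where 4.75%, 4.08% and 4.20% of genes were. The part of the stress genes in the Tnf and Il1rn differences was not tested.

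**Figure D4:**
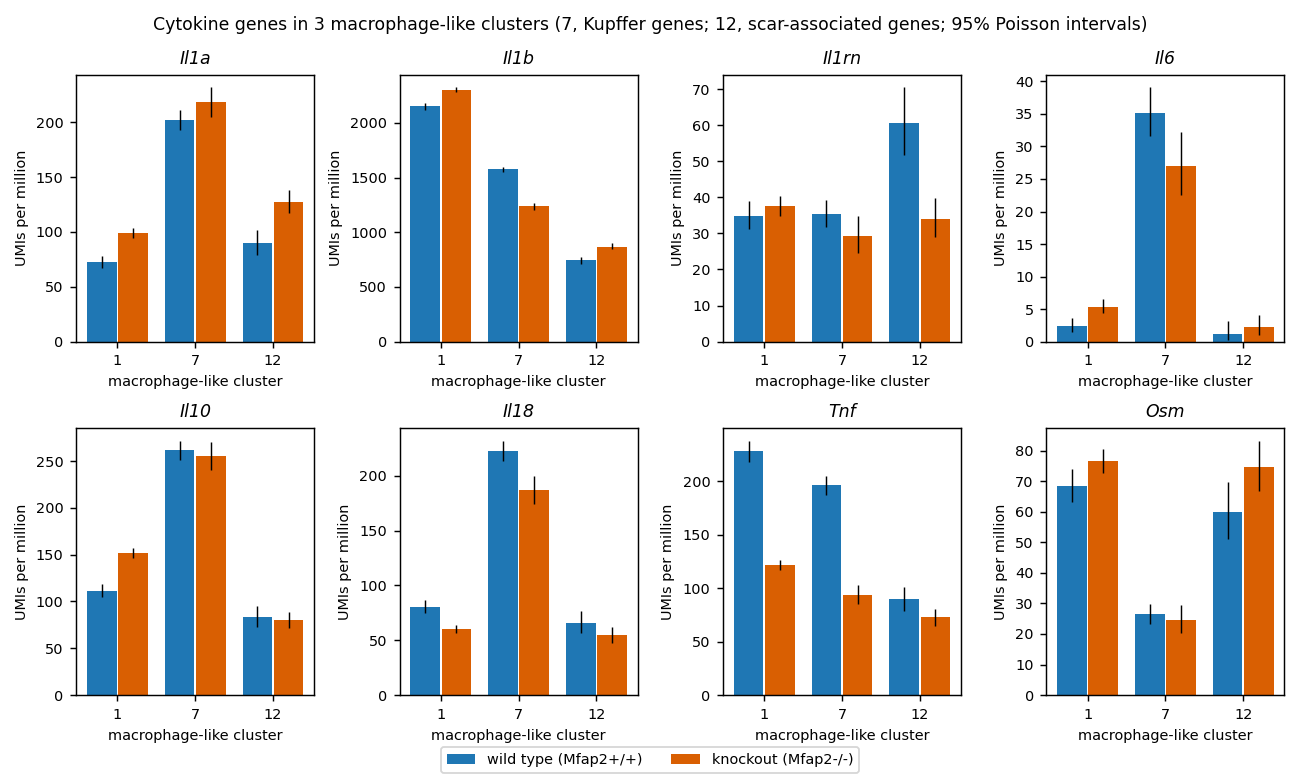
Level of each gene (CPM) in macrophage-like clusters 1, 7 (Kupffer genes) and 12 (scar-associated genes), with 95% Poisson intervals, 1 library per genotype. Il18, Il6, Il10 and Il1a were highest in cluster 7 in both libraries, and Tnf was lower in the knockout bar of every cluster.

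Il18, which induces interferon gamma in NK and T cells, was the one gene led by macrophage-like cells. It was at 142 CPM in wild type (137 to 147, 2077 cells) and 80.6 in knockout (77.3 to 84.0, 2113 cells), a 1.77-fold difference with a log2 ratio of -0.82 (-0.90 to -0.74). A UMI was seen in 54.6% and 48.7% of these cells, or 11.2% and 7.11% after thinning, against 6.72% and 4.31% of T-like cells (1.28% and 0.680%). Median depth in macrophage-like cells was 10536 and 12727 UMIs, so the lower share belonged to the deeper library.

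Within the clusters the differences were smaller. Cluster 7 had 222 and 187 CPM of Il18 (log2 -0.25, -0.37 to -0.14), cluster 1 had 80.5 and 60.0 (log2 -0.42, -0.56 to -0.29) and cluster 12 had 66.1 and 54.5 (log2 -0.28, -0.56 to 0.01). With knockout clusters in the wild-type mix the class ratio was -0.34. cDC1-like cells had 52.1 and 51.7 CPM, with a log2 interval of -0.39 to 0.37, and a ratio of 0.57 with cells thinned to 1000 UMIs. In classes at background level Il18 was lower in the knockout as well, at 15.1 and 6.53 CPM in endothelial-like cells and 15.6 and 8.79 in B-like cells.

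Il10, the anti-inflammatory member, was highest in patrolling monocyte-like cells, with 209 CPM in wild type (194 to 226, 708 cells) and 243 in knockout (231 to 256, 1037 cells). The log2 ratio was 0.22 (0.09 to 0.35). Only 23.9% and 27.0% of these cells had a UMI (12.1% and 12.7% after thinning), against 6.15% and 9.03% of endothelial-like cells (1.63% and 1.64%), and single cells reached 28 and 61 UMIs. Expression was thus carried by a minority of cells, with the 5 richest holding 15.7% and 11.9% of the Il10 UMIs of the class.

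Macrophage-like cells had 175 CPM of Il10 in wild type (170 to 181) and 158 in knockout (153 to 162), a log2 ratio of -0.15 (-0.21 to -0.09) that was 0.073 with the wild-type mix of clusters. Cluster 7 had 261 and 255 CPM, and cluster 1 had 111 and 152 CPM (log2 0.45, 0.34 to 0.55). Among T-like cells the cluster with Foxp3 and Ctla4, genes of regulatory T cells, stood apart with 185 CPM in wild type and 181 in knockout. The largest T-like cluster had 14.5 and 14.4 CPM.

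Il6 had only 1120 wild-type and 940 knockout UMIs in all. Over both libraries it was highest in mesenchymal-like cells, the collagen-producing cells of the liver, at 92.3 CPM in wild type (81.4 to 104, 196 cells) and 56.3 in knockout (48.3 to 65.2, 198 cells), a log2 ratio of -0.71 (-0.998 to -0.43). The share of cells with a UMI was 29.1% and 28.8%, with overlapping intervals of 22.8 to 36.0 and 22.6 to 35.6, and 5.61% and 3.03% after thinning. Cells with more than 5 Il6 UMIs numbered 17 and 9, and the 5 richest held 36.3% and 33.3% of the UMIs. Without doublet removal the ratio was -0.35. In T-like cells 0.700% and 0.884% had an Il6 UMI. The mesenchymal marker list itself summed to 20972 CPM in wild type and 15466 in knockout.

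Classical monocyte-like cells had 51.6 CPM of Il6 (44.1 to 60.0) in wild type and 57.1 (49.7 to 65.3) in knockout, intervals that overlapped. They were below mesenchymal-like cells in wild type only, since in knockout the intervals of both classes overlapped. In macrophage-like cells Il6 was at 16.9 and 8.49 CPM, a log2 ratio of -0.99 (-1.24 to -0.76). There it was concentrated in the Kupffer gene cluster, with 35.2 and 27.0 CPM (log2 -0.37, -0.69 to -0.08), whereas cluster 1 went the other way, with 2.35 and 5.32 CPM (log2 1.13, 0.50 to 1.91). With the wild-type mix of clusters the class ratio was -0.28, and with cells thinned to 1000 UMIs it was -1.35. Wild-type macrophage-like cells with an Il6 UMI had an Il1a UMI in 79.1% of cases and an Il18 UMI in 84.2%, against 44.5% and 52.1% of those without. In the knockout the shares were 74.0% and 70.2%, against 44.6% and 47.5%. The cells with Il6 were also deeper, with median UMIs of 13222 against 10265 in wild type and 15890 against 12633 in knockout. In wild type an Il6 UMI was seen in 17.2% of cluster 7 cells, 1.71% of cluster 1 cells and 1.07% of cluster 12 cells. Cluster 7 as a whole had an Il1a UMI in 67.9% and 72.0% of cells, in wild type and knockout. Its shares for Il18 were 75.6% and 78.8%. Co-detection was not counted within clusters.

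Neutrophil-like cells gave the largest ratio of any of the 8 genes, from 38.1 CPM of Il6 in wild type to 7.92 in knockout (log2 -2.22, -2.95 to -1.64), but nearly all of it came from a handful of cells. In wild type 116 of 121 UMIs were in 5 cells, and each of these had 3 to 6 of 7 basophil or mast cell markers. In knockout 22 of 25 UMIs were in 1 cell with 5 such markers. The marker list summed to 59.2 CPM in wild-type and 5.07 in knockout neutrophil-like cells, with 1 of 7 at 0 in the knockout. Among cells with fewer than 3 of the markers Il6 was at 1.59 and 0.952 CPM, from 5 and 3 UMIs, near the 1.78 and 1.502 CPM of T-like cells. The log2 ratio from these few UMIs was -0.59. For the whole class it was -3.82 without doublet removal and -0.98, under 2-fold, with cells gated one by one.

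**Figure D5:**
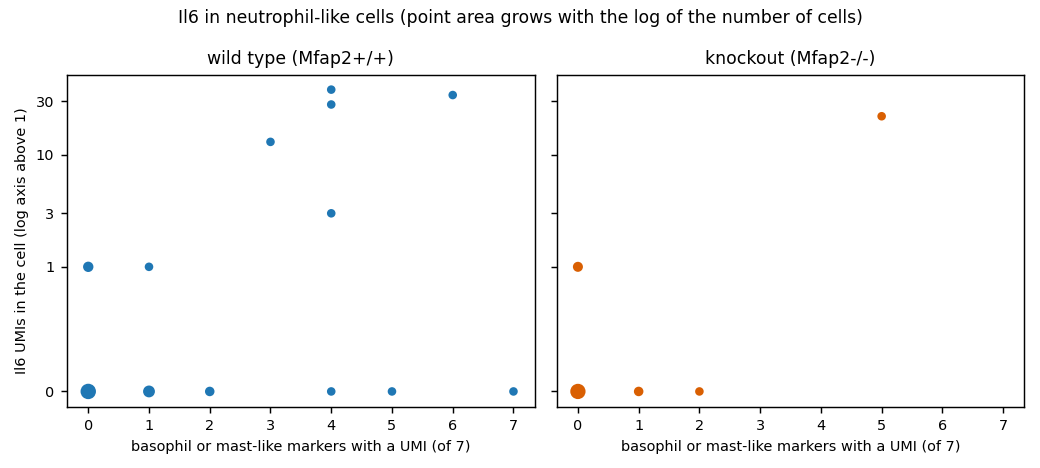
Il6 UMIs per neutrophil-like cell (log axis above 1) against the number of basophil or mast-like markers with a UMI, by library, with point area growing with the log of the number of cells. All 6 cells with 3 or more Il6 UMIs had 3 or more markers, 5 in wild type and 1 in knockout.

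Osm, which acts on stromal and endothelial cells, was highest in neutrophil-like cells at 947 CPM in wild type (914 to 982) and 872 in knockout (840 to 905), a log2 ratio of -0.12 (-0.19 to -0.04). At least 1 UMI was counted in 60.4% and 58.6% of these cells (43.8% and 39.9% thinned), against 5.36% and 6.88% of B-like cells (1.58% and 1.08%). The order of the neutrophil-like clusters was opposite to that of Il1b. Cluster 13, with the granule genes, had 1268 CPM in wild type and 1359 in knockout, and cluster 3 had 755 and 627 (log2 -0.27, -0.38 to -0.16). Osm and Il1b were thus high in different neutrophil-like clusters in both libraries.

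Classical monocyte-like cells had 502 CPM of Osm in wild type (478 to 527) and 570 in knockout (546 to 595), a log2 ratio of 0.18 (0.09 to 0.28). Macrophage-like cells had 48.5 and 67.4 CPM (log2 0.48, 0.37 to 0.59), or 0.16 with the wild-type mix of clusters. In cDC2-like cells it was at 47.0 and 81.8 CPM (log2 0.79, 0.46 to 1.15), with the opposite sign, -0.10, under a stricter cell filter (500 genes or more, mitochondrial share up to 10%) and 0.085 when these genes were kept in the clustering. The receptor subunit Osmr was highest in mesenchymal-like cells, with 817 and 967 CPM (log2 0.24, 0.16 to 0.32), followed by endothelial-like cells with 265 and 353 CPM (log2 0.41, 0.33 to 0.49).

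Set beside all genes, differences past 2-fold were few. In macrophage-like cells 0 of the 8 genes passed 2-fold, where 7.28% of 14969 genes with at least 20 UMIs did, and the median of the 8 was -0.13 beside 0.14 for all genes. With median-of-ratios scaling 1 of 8, Il6 (-1.09), was past 2-fold lower there, where 1.54% of genes were. In neutrophil-like cells 1 of 8, Il6, was past 2-fold lower, where 1.49% of genes were lower and 4.85% higher (2.04% and 3.72% with median-of-ratios scaling). In cDC2-like cells 1 of 8, Il1rn, was past 2-fold higher, where 4.20% of genes were, but it was not past 2-fold (0.70) with cells gated one by one. In endothelial-like cells 1 of 8 was past 2-fold lower, Il18 at its background level, where 2.35% of genes were. In mesenchymal-like cells 1 of 8, Osm at 8.56 and 17.8 CPM, was past 2-fold higher, where 5.85% of genes were (3.96% with median-of-ratios scaling, under which Osm itself was no longer past 2-fold). In cholangiocyte-like cells 1 of 8, Il6 with 7 and 25 UMIs, was past 2-fold higher, where 6.81% of genes were. In cycling cells 1 of 8, Il6 at 38 and 36 UMIs, was past 2-fold lower, where 2.43% of genes were. None was past 2-fold in the classical or patrolling monocyte-like classes, where 6.16% and 5.30% of genes were. With median-of-ratios scaling 2 of 8 were past 2-fold lower in patrolling monocyte-like cells, Tnf (-1.02) and Il6 (-1.04, from 27 and 25 UMIs), where 1.60% of genes were. Median-of-ratios scaling moved ratios by over 0.1 only in mesenchymal-like (0.12), NK or ILC-like (0.16), plasma-like (0.11) and hepatocyte-like (-0.20) among named classes.

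The receptors also differed in their leading class. Il1r1, the signalling receptor for interleukin 1, was at 478 CPM in wild-type and 440 in knockout endothelial-like cells (log2 -0.12, -0.19 to -0.05) and at 348 and 488 in mesenchymal-like cells (log2 0.49, 0.37 to 0.60). The leading class was thus endothelial-like in wild type and mesenchymal-like in knockout. Il1r2, the decoy receptor, was highest in neutrophil-like cells, at 1041 and 1340 CPM (log2 0.36, 0.30 to 0.43), and so was the co-receptor Il1rap, at 472 and 631 (log2 0.42, 0.32 to 0.52). Il1b and the decoy receptor were thus highest in the same class.

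The subunits of the interleukin 18 receptor were highest in lymphocytes, Il18r1 in T-like cells at 188 and 228 CPM and Il18rap in NK or ILC-like cells at 260 and 277. Il18bp, which binds and blocks interleukin 18, was highest in macrophage-like cells like the cytokine, at 207 CPM in wild type and 152 in knockout (log2 -0.45, -0.51 to -0.38). The TNF receptors Tnfrsf1a and Tnfrsf1b were highest in neutrophil-like cells, at 180 and 185 CPM and at 259 and 367 CPM (log2 0.50, 0.37 to 0.63). Patrolling monocyte-like cells had 250 and 256 CPM of Tnfrsf1b, close to the neutrophil-like level in wild type. Tnfrsf1a was lower in knockout endothelial-like cells, at 163 and 101 CPM (log2 -0.69, -0.82 to -0.57). The interleukin 6 receptor Il6ra and the interleukin 10 receptor Il10ra were highest in patrolling monocyte-like cells, at 153 and 202 CPM and at 179 and 272 CPM. Classical monocyte-like cells followed closely, at 132 and 191 CPM and at 168 and 253 CPM. No intervals are given for receptor levels, so such close orders were not settled. The shared subunit Il6st was highest in endothelial-like cells, at 949 and 838 CPM.

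Of the 14 receptors and antagonists, 11 were above 0 in macrophage-like cells (median log2 ratio 0.33) and 11 of 13 with enough UMIs in neutrophil-like cells (median 0.49), beside 0.14 and 0.10 for all genes. None was past 2-fold in either class, where 7.28% and 6.34% of genes were. The list ran from Il18bp to Osmr in macrophage-like cells (Osmr at 7.97 and 13.1 CPM, 0.71), and in neutrophil-like cells from Il18bp at 24.2 and 21.9 CPM (-0.15) to Il18r1 at 13.8 and 25.0 (0.84). The NF-kappaB and STAT3 feedback list holds inhibitors such as Nfkbia but also NF-kappaB subunits such as Rel, so it does not measure restraint alone. Its 14 genes were all above 0 in neutrophil-like cells with a median of 0.26, beside 0.10 for all genes. Of these, Zfp36, Tnip1, Nfkbia and Nfkbiz lay below that 0.10. The 14 ran from the mRNA-decay factor Zfp36 at 2363 and 2474 CPM (0.07) to Birc3, which limits TNF-induced death, at 763 and 1145 (0.59). In macrophage-like cells 8 of these 14 were above 0, with a median of 0.04 beside 0.14 for all genes. There the 14 ran from Nfkbia, the NF-kappaB inhibitor, at 1945 and 1602 CPM (-0.28) to Traf1, a TNF receptor adaptor, at 45.2 and 66.7 (0.56).

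For processing and release, 5 of 10 genes were above 0 in macrophage-like cells (median 0.04, beside 0.14 for all genes). In neutrophil-like cells 7 of 10 were above 0 (median 0.35, beside 0.10). Nlrp1b, an inflammasome sensor, was the highest of the list in both, at 27.7 and 38.01 CPM (0.46) and at 8.50 and 21.2 CPM (1.29). In neutrophil-like cells it was the 1 gene of the 10 past 2-fold, where 4.85% of genes were past 2-fold higher. Pycard, the inflammasome adaptor, was the lowest in macrophage-like cells at 110 and 94.3 CPM, and Gsdmd, the pore-forming gasdermin, in neutrophil-like cells at 25.5 and 16.8. Of the 13 signal relay genes 8 were above 0 in macrophage-like cells (median 0.16, beside 0.14 for all genes). The 13 ran from Irak1 at 46.7 and 33.6 CPM to the kinase Jak1 at 615 and 1007. In neutrophil-like cells 9 of 13 were above 0 (median 0.12, beside 0.10 for all genes). There the 13 ran from Traf6 at 27.7 and 21.2 CPM to the endotoxin receptor Tlr4 at 53.2 and 96.9.

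The same lists were counted in 3 other classes. In classical monocyte-like cells the medians were 0.38 for receptors, 0.23 for processing, 0.28 for relay and 0.33 for feedback genes, beside 0.08 for all genes. In patrolling monocyte-like cells they were 0.17, -0.03, 0.26 and 0.01, beside 0.07. Of the receptors there 1 of 14 was past 2-fold higher, Il18r1 with 4 and 24 UMIs, where 4.08% of genes were. In cDC2-like cells the medians were 0.19, 0.27, 0.16 and 0.10, beside -0.02. Nlrp1b (18.7 and 40.3 CPM), 1 of 10 processing genes, was past 2-fold higher, where 4.20% of genes were. Il18rap (53.4 and 24.6 CPM), 1 of 14 receptors, was past 2-fold lower, where 2.96% of genes were.

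The genes with the most similar pattern over 30 sums (15 classes in 2 libraries, so the points come in pairs of the same class) were named from 9059 candidates by Pearson's r of log2(CPM + 10), as a description. Il1b was most like Alox5ap, which serves leukotriene synthesis (0.97), Csf2ra (0.97) and Csf2rb (0.96), the receptor subunits for GM-CSF. Osm was most like Ifitm6 (0.96), Slc2a6 (0.94) and Mcemp1 (0.93), and Tnf like the NF-kappaB inhibitor Nfkbia (0.90), the chemokine Ccl3 (0.87) and Lilrb4a (0.86). Il1rn was most like Cd14 (0.90), Csf3r (0.89) and Lpcat2 (0.87), and Il10 like Adrb1 (0.89), Ms4a6d (0.87) and Clec4a1 (0.86). Il1a was most like Tfec (0.90), Ptgs1 (0.89) and Mrc1 (0.88), Il18 like Aif1 (0.87), Rab32 (0.86) and Clec12a (0.85), and Il6 like Tgfbi (0.88), Tnfrsf21 (0.80) and Acta2 (0.78).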

How the data were processed

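Single-cell 3' libraries of liver nonparenchymal cells were sequenced for 1 wild-type and 1 knockout sample. The authors deposited raw UMI counts per gene and barcode, with barcodes of under 500 UMIs absent from both matrices. The submitters' processing notes name Cell Ranger 3.1.0, Seurat and mm10, while the file headers name Cell Ranger 7.0.1; settings are not given in the sources used here. No sample columns were left unused.

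Barcodes below 200 genes or above 20% mitochondrial UMIs were dropped. Scrublet's automatic cut marked 0.0616% of wild-type and 6.15% of knockout cells, so the highest scores were removed at 0.8% per 1000 cells (1034 and 1295 cells). Both libraries were clustered together (scanpy 1.11.5, 2000 variable genes without the described genes, 30 components, 15 neighbours, leidenalg 0.10.2, resolution 1) into 31 clusters. A class name needed at least 3 fixed markers raised 2-fold in at least 10% of a cluster's cells. The 4 clusters that stayed unnamed also met this rule. Clusters 8, 19 and 28 were left out for low depth, with no marker of the closest class among their leading genes. Cluster 18 was left out because its top genes pointed to a different class than its markers did. Names are rebuilt, not the authors'. UMIs were summed per class and library as CPM with exact Poisson intervals, shares with Clopper-Pearson intervals, and ratios, with 1 UMI added to each sum, with exact conditional binomial intervals. A share of 0 is read against a floor of 3 counts. Ratios needed at least 20 UMIs, classes at least 50 cells in both libraries. Genes past 2-fold are a description, not a test. Interval and ratio code was tested on simulated counts.

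The text does not give every class in which a gene has 20 UMIs. Left out, for example, were Il10 in cDC2-like (log2 -0.73, -1.18 to -0.25), cycling (-0.87, -1.18 to -0.55) and cholangiocyte-like cells (0.69, 0.20 to 1.23). The Il1a ratio in T-like cells (0.86, 0.17 to 1.70) was also left out. Most of the highest and lowest list ratios in macrophage-like and neutrophil-like cells are named. The leading class is named for all receptors but Sigirr and Il10rb. The genes and lists were chosen with earlier results of these data known, and the thresholds of 3 basophil and 4 migratory markers after seeing the data. Gene identifiers matched GENCODE M21 for 99.61%.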

Additional observations from a re-analysis of the deposited data

How the results depend on the processing

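Ratios were recomputed under 11 alternatives, and 2 more chosen after seeing the data: knockout clusters weighted as in wild type, and neutrophil-like cells without those holding basophil markers. Values are log2 knockout over wild type, and the cause of a change was not tested. Without doublet removal Il1a in endothelial-like cells was 0.58, Il1b in neutrophil-like cells 0.13, Il6 in mesenchymal-like cells -0.35 and Osm in neutrophil-like cells -0.34. With libraries clustered separately, neutrophil-like cells had 0.051 for Il1b, 0.14 for Il1rn and -0.24 for Osm. With the mean of per-cell CPM, Il1b was 0.16, Il10 in patrolling monocyte-like cells 0.064, Il18 in macrophage-like cells -0.73, Tnf in cDC2-like cells -0.19 and Osm -0.22. With cells thinned to 1000 UMIs, Il1b was 0.15, Il18 -0.61 and Tnf -0.047. With median-of-ratios scaling Il1b was 0.13, Il18 -0.91 and Osm -0.20. With the wild-type mix Il1a in endothelial-like cells was 0.56, Il1b in neutrophil-like cells 0.12 and Il18 -0.34, and in macrophage-like cells Il1a (0.21), Il1b (-0.073) and Il10 (0.073) changed sign. With the stricter cell filter (500 genes or more, mitochondrial share up to 10%), Tnf was -0.033 and Osm -0.10 in cDC2-like cells. With a gate on marker UMIs Tnf in cDC2-like cells was -0.53. Tnf kept its sign in macrophage-like, neutrophil-like and both monocyte-like classes under all alternatives, between -1.02 and -0.49, and Il18 in macrophage-like cells between -0.91 and -0.34.

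Thinning lowered every share of cells with a UMI in the leading class: to 14.5% and 20.03% (Il1a, wild type and knockout), 90.7% and 93.4% (Il1b), 20.5% and 24.7% (Il1rn), 5.61% and 3.03% (Il6), 12.1% and 12.7% (Il10), 11.2% and 7.11% (Il18), 27.4% and 27.5% (Tnf), and 43.8% and 39.9% (Osm). Without the filter on low counts, genes past 2-fold numbered 3162 in endothelial-like cells (842 with it), 3963 in mesenchymal-like (974), 4052 in neutrophil-like (611), 2825 in patrolling monocyte-like (571), 3201 in cDC2-like (755) and 3830 in macrophage-like cells (1090). No cDC2-like class formed in both libraries without doublet removal or with separate clustering, nor a cDC1-like class without doublet removal or with the stricter cell filter, so these values were not run. With 1 library per genotype no replicate could be left out. No paired analysis was possible because each genotype has 1 library and no result comes from a test.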

Other observations

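Clusters that took no class name also held some of these genes. The largest of them, cluster 8, held 484 wild-type and 482 knockout cells and was left unnamed for low depth (median 919.5 and 1088.5 UMIs). It had 4 of 8 Kupffer genes raised. Its Tnf level was 439 and 379 CPM (log2 -0.21, -0.46 to 0.04), in wild type above the 415 CPM of neutrophil-like cells. Il18 was at 162 and 111 CPM there (log2 -0.54, -0.99 to -0.10), above the macrophage-like class at 142 and 80.6 CPM. Another shallow cluster was led by the contractile genes Acta2, Myh11 and Tagln. Its Il6 level was 88.3 CPM in 46 wild-type cells and 104 CPM in 70 knockout cells. All 10 mesenchymal markers were raised in it, but it was left unnamed for low depth (median 1158.5 and 957 UMIs). Mesenchymal-like cells had 92.3 and 56.3 CPM of Il6, with the libraries in the opposite order. With under 50 wild-type cells the cluster has no ratio, and its levels are given without intervals. A deep cluster led by Elane, Prtn3 and Mpo, granule genes of neutrophil precursors, had 333 CPM of Osm in 157 wild-type cells and 302 CPM in 98 knockout cells, but 701 and 639 CPM of Il1b, below all myeloid classes. Its Tnf level was 113 and 48.5 CPM (log2 -1.21, -1.53 to -0.90). Cells with at least 3 of 7 basophil or mast cell markers, wherever they clustered, numbered 9 in wild type and 5 in knockout. They had 2739 and 617 CPM of Il6 and 1723 and 391 CPM of Osm, with 116 and 30 Il6 UMIs in all.

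Among wild-type mesenchymal-like cells, those with an Il6 UMI had an Il10 UMI in 49.1% of cases (35.6 to 62.7) against 15.1% (9.6 to 22.2) of the others, with median depths of 14882 and 12545 UMIs. In the knockout the shares were 29.8% and 27.7%, with median depths of 17480 and 13701. The Il10 level of the class was 26.0 CPM in wild type and 24.8 in knockout. Among the 7 non-myeloid classes, of which it is 1, only T-like cells had more, with 30.3 and 37.1 CPM. The lowest levels of the 7 were 9.48 CPM in wild type and 9.35 CPM in knockout. Many other pairs of genes were counted in the class.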
